A study of Saccharomyces cerevisiae with 32 samples.

Results

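The genes described here encode the proteins of the small cytosolic ribosomal subunit of budding yeast. They were taken as all genes whose symbol in the array annotation is RPS, a number and at most a final A or B, and 52 of the 5373 genes tested met that rule. All 52 lay above the background read from S. pombe probe sets, which have no target in this yeast, so none was lost to the filter on low values. RPS4A, RPS6A and RPS30B had no probe set under their own names. They may be read together with a near-identical copy, whose probe set ends in _s_at and can match more than 1 transcript. The 52 genes form 21 pairs in which each copy had a probe set of its own (42 genes), 3 further genes and 7 genes without a paralogue. The 3 genes, RPS4B, RPS6B and RPS30A, may each stand for a pair read from 1 shared probe set. RPS symbols were the only property used to choose them, and no measured value entered the choice.

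The samples came from 1 continuous culture of CEN.PK113-7D, a haploid MATa laboratory strain, grown in a fermentor at 30 °C and pH 4.0 on glucose medium at a dilution rate of 0.06 to 0.086 per h. Its dissolved oxygen oscillated with a period of about 2 h, and 32 samples were taken every 4 min from 10 h to 12.07 h. The labels give each sample a phase angle, which advanced by 12.5° per sample, and the 3 samples at the end repeat the phases of the 3 at the start to within 1.93°. There is 1 group and no replicate time point, so the errors below measure the scatter of 32 samples of 1 culture around a fitted curve. Labelled cRNA was hybridised to Affymetrix Yeast Genome 2.0 arrays, 1 array per sample, and the number of arrays limits the precision. Per array, S. cerevisiae sets had a median signal of 1436 to 2340, against 5.4 to 9.8 for S. pombe sets. As a check of mating type, the median signals of the MATa markers STE2, MFA1, MFA2, BAR1, STE6 and AGA2 lay between 3803 and 11095, against 77.7 to 1079 for the MATalpha markers STE3, MF(ALPHA)1, MF(ALPHA)2 and SAG1.

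A ribosomal protein of the small subunit binds ribosomal RNA during assembly in the nucleolus and then stays in the mature particle, where it shapes the head, body or platform that hold mRNA and tRNA. Most of these proteins are encoded by 2 genes that were kept after the whole-genome duplication, and the copies differ in promoters, introns and untranslated regions more than in protein. Transcription of the family follows growth signals through the promoter proteins Rap1, Fhl1 and Ifh1. In bulk samples, a change in the number of cells that express a gene and a change in the amount of RNA per cell cannot be told apart.

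The small subunit genes were high early in the cycle, as its phase angles run, and low around 153°. In the normalized data the highest sample lay between 9.35° and 84.2° for 50 of the 52 genes, and the lowest lay between 122° and 171° for 48 of them. Each gene was fitted with a curve of 2 harmonics of the phase angle, and the range below is the distance between the highest and lowest point of that curve on the log2 scale. Of the 52 genes, 33 varied with phase (limma moderated F test after whitening for the autocorrelation of neighbouring samples, Benjamini-Hochberg adjusted p under 0.05 over all genes), against 55.4% of all genes tested. The fitted curves of the 33 peaked between 12° and 61° and had their lowest point between 118° and 189°. Among all genes tested, 22.1% passed and peaked in the same interval. For the 33 genes, the fitted peak moved by a median of 1° and at most 10° between odd and even samples.

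The size of the change was uneven across the family. Fitted ranges lay between 0.14 for RPS25A and 2.54 for RPS26B, with a median of 0.76, against a median of 0.87 over all genes tested. A range of at least 2-fold was found for 20 of the 52 genes, 18 of which passed the test, whereas 43.1% of all genes had such a range. All 20 belonged to pairs. The 42 genes of measured pairs had a median range of 0.98 and 30 of them passed (71.4%). The 7 single-copy genes had a median of 0.35 and 3 passed (42.9%). Of the 3 genes read from a set that can match both copies none passed. Over all genes tested the share was 55.4%. By place in the subunit, 17 of 25 body genes, 12 of 21 head genes and 4 of 6 platform genes passed. These shares of 68%, 57.1% and 66.7% stand beside the 55.4% of all genes, and whether the places differ was not tested. The median ranges were 0.93, 0.76 and 0.92.

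**Figure D1:**
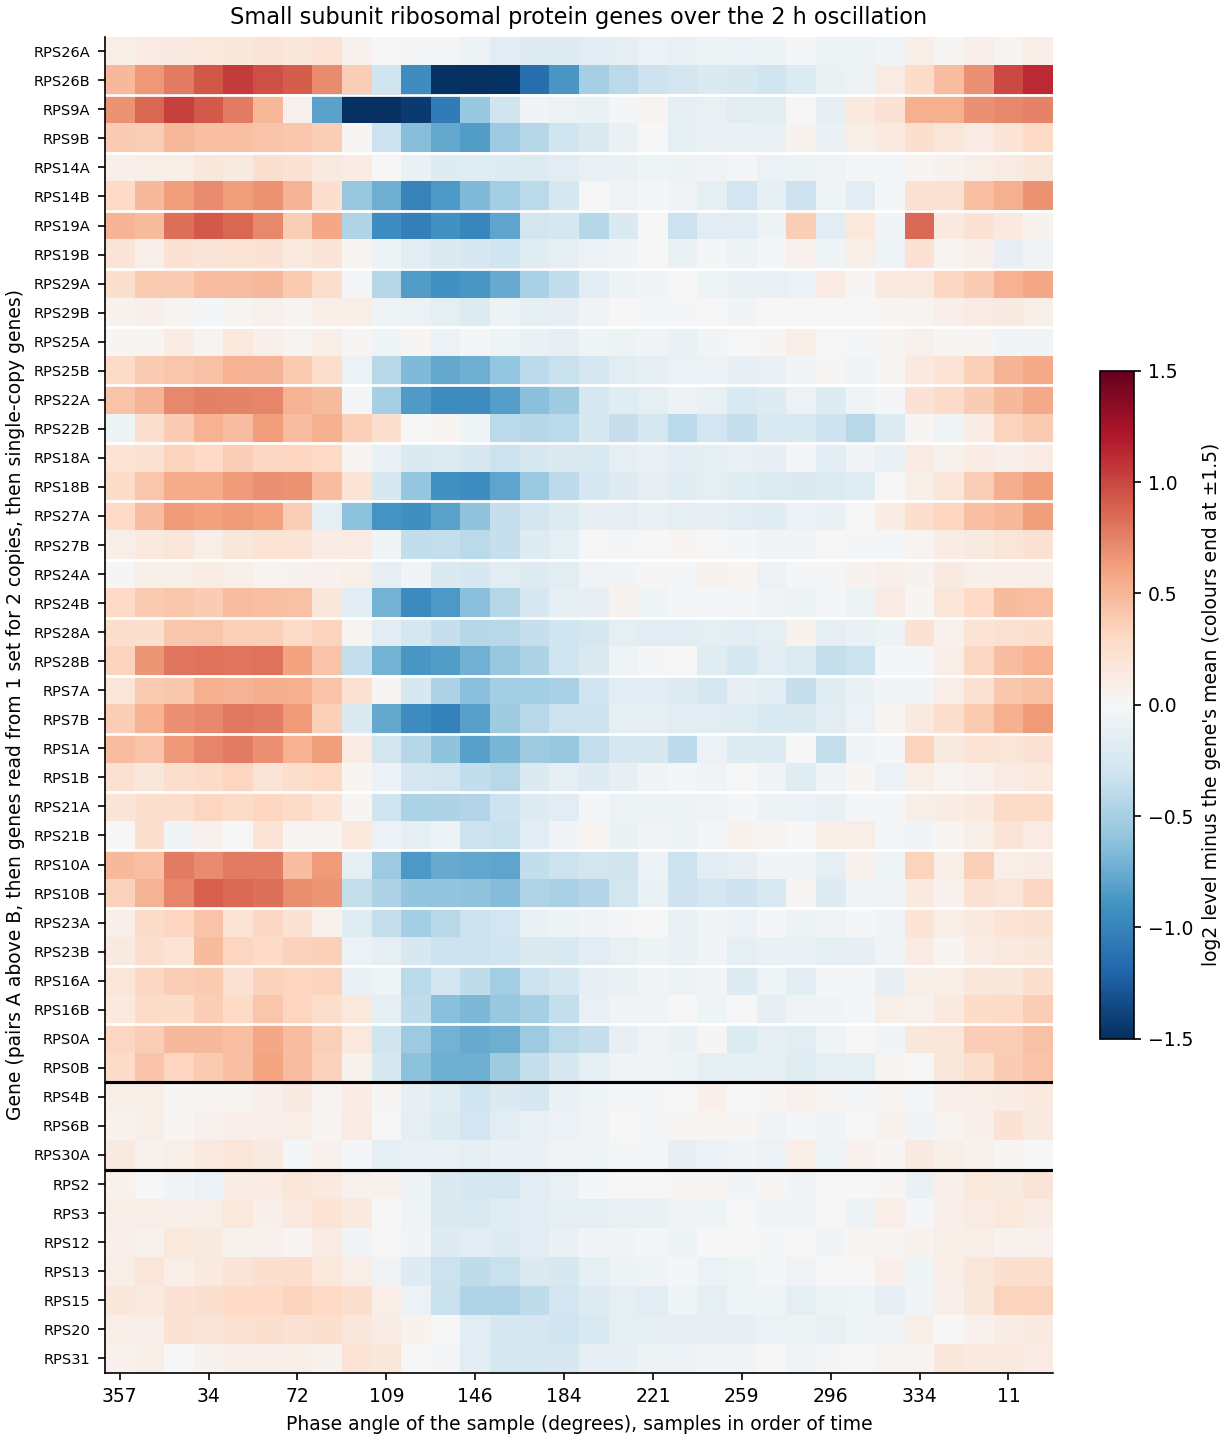
Each row is 1 of 46 genes and each column a sample in order of time, labelled with its phase angle in degrees; colour shows the normalized log2 level minus the gene's own mean, and colours end at ±1.5. Pairs are ordered by the range of A minus B, from RPS26 at the top to RPS0, followed by the 3 genes read from shared sets and the 7 single-copy genes. Blue cells between about 122° and 171° mark the common low point, deep in RPS26B, earlier in RPS9A, and faint in RPS25A and RPS29B.

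The signals as deposited also carried differences in brightness between arrays. In the deposited values 40 of the 52 genes had their lowest signal in the sample at 158.96°, whose array had the third lowest median of all 32, whereas after normalization 9 did. Leaving that sample out gave 33 genes again. Array scaling also set the size of the common change: the median level of the 52 genes differed by 0.80 between its lowest and highest sample after quantile normalization, by 0.92 in the deposited values and by 1.93 when arrays were scaled by the poly-A control transcripts, while the median of all genes differed by 0.003, 0.71 and 1.27. With poly-A scaling 21 of the 52 genes passed, against 24.5% of all genes.

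The pairs were compared through the log2 difference A minus B in each sample, taken after quantile normalization. Scaling an array by a factor does not change such a difference, but quantile normalization can. Probe sets differ in brightness for the same amount of RNA, so the level of this difference was not read, only its course over phase. It was fitted over all 52 pairs on the array whose symbols differ only in a final A or B. These are the 21 small subunit pairs themselves, 29 large subunit pairs, COX5 and NHP6. Shares over the 52 thus describe mostly ribosomal protein pairs and not yeast paralogues in general. The difference varied with phase in 11 of the 21 small subunit pairs (limma, adjusted p under 0.05 over the 52 pairs), against 48.1% of the 52 pairs. In the deposited values, with poly-A scaling and with median scaling, 12 of the 21 pairs passed, beside 28 of all 52. The fitted range of A minus B was at least 2-fold in 7 of the 21 pairs, against 28.8% of the 52. The median range of A minus B was 0.87 in the 21 pairs and 0.72 in the 52. Of the 31 pairs outside the small subunit 14 passed, and their median range was 0.69. Between the samples of matching phase at the start and end of the series, A minus B differed by a median of 0.14 over the 21 pairs. The largest single difference was 0.59, and the medians of RPS26 and RPS18 were 0.38 and 0.29. In 20 of the 21 pairs the fitted range exceeded the largest such difference of that pair. This held also for pairs that did not pass, such as RPS0 (0.20 against 0.16) and RPS16 (0.24 against 0.21). The count therefore does not show that A minus B changed in a pair.

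**Figure D2:**
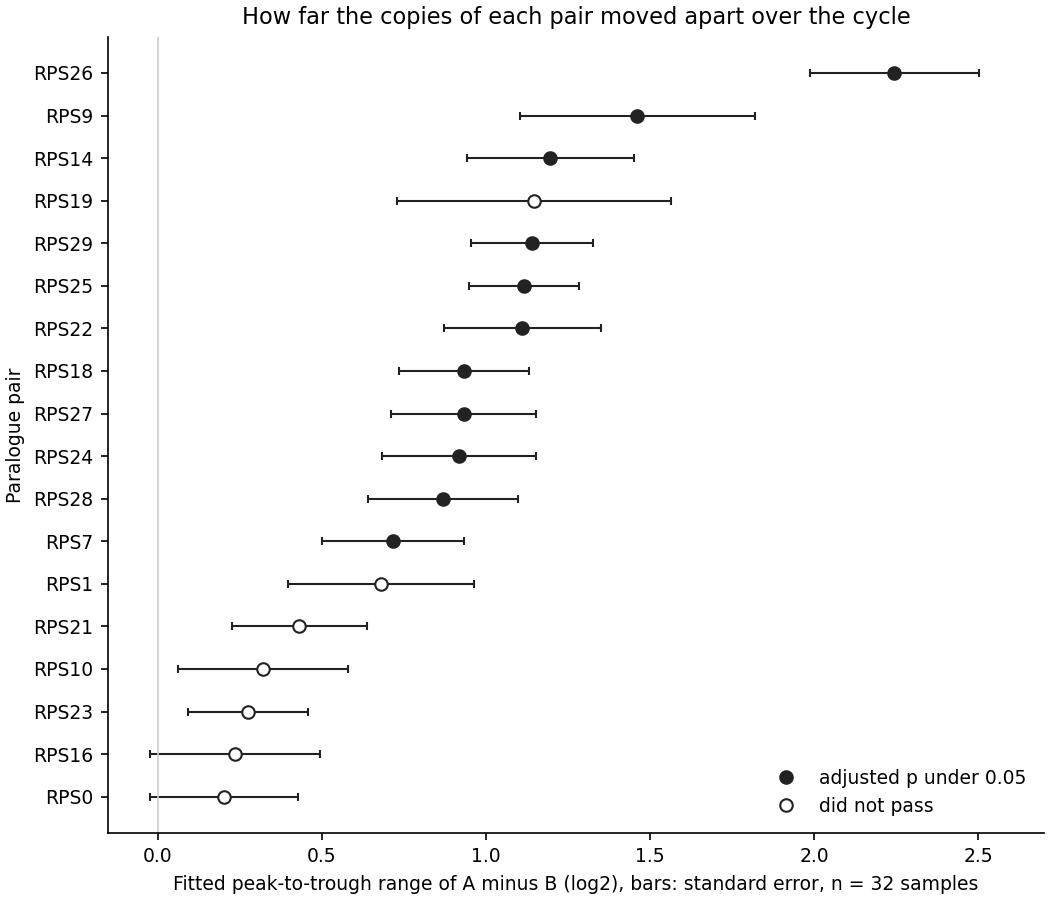
Points give the fitted peak-to-trough range of A minus B (log2) of 18 of the 21 pairs, and bars give its standard error (n = 32 samples). Filled points passed the test. RPS26 lies at 2.25 and RPS0 at 0.20, and RPS19 did not pass although its range was 1.15.

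RPS26 had the largest change of the difference. Its protein lines the channel through which mRNA leaves the small subunit. The deposited signal of RPS26A had a lowest value of 11201, a median of 13429 and a highest of 16233, against 1602.5, 5034 and 11056 for RPS26B. RPS26A was thus nearly level, and RPS26B was high from the start to about 84.2° and lowest around 146°. The fitted range of RPS26A was 0.33 ± 0.11 (SE, n = 32, as for all ranges here) and did not pass (limma adjusted p = 0.0986), against 2.54 ± 0.26 for RPS26B (5.62e-08). A minus B had a range of 2.25 ± 0.26 (limma adjusted p = 5.78e-07). In single samples it was highest at 146°, where the deposited signals were 13338 for RPS26A and 1767 for RPS26B, and lowest at 23.8°, with 14418 and 11056.

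RPS9, whose protein lies near the mRNA entry of the body and bears on the accuracy of decoding, followed. RPS9A ran from 1869 through a median of 6614 to 14503, against 7676, 12282 and 18053 for RPS9B. The A copy reached its lowest point early, at 96.6°, when RPS9B was still near its mean, and RPS9B was lowest at 146°. The fitted ranges were 2.20 ± 0.39 and 1.09 ± 0.22, and both copies passed (limma adjusted p = 0.000178 and 0.00192). The fitted curve of RPS9A peaked at 12° and that of RPS9B at 32°, and their lowest points lay at 118° and 149°. A minus B had a range of 1.46 ± 0.36 (limma adjusted p = 0.00528), with its highest fitted value at 3° and its lowest at 102°. With odd time points alone this call was lost.

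RPS14 encodes a platform protein that in this yeast also binds the unspliced transcript of RPS14B. RPS14A had signals from 11968 to 18643 with a median of 14764, against 3153 to 11024 with a median of 6115 for RPS14B. Both copies passed, with ranges of 0.40 ± 0.09 and 1.51 ± 0.28 (limma adjusted p = 0.00572 and 0.000271). RPS14B reached its lowest sample at 122° and RPS14A at 171°. A minus B had a range of 1.20 ± 0.25 (limma adjusted p = 0.00246), and its highest sample lay at 122°.

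RPS29 and RPS25, which encode small proteins of the head, each held a nearly level copy. RPS29A ran from 4470 through 8245 to 12037, against 12038, 13818 and 15372 for RPS29B. Their ranges were 1.35 ± 0.19 and 0.21 ± 0.12, and RPS29B did not pass (limma adjusted p = 1.16e-05 and 0.634). RPS25A ran from 12603 through 14041 to 15826, against 5596, 8761 and 13414 for RPS25B. RPS25A, with a range of 0.14 ± 0.13, showed the smallest change of all 52 genes and did not pass (limma adjusted p = 0.925), whereas RPS25B had 1.22 ± 0.14 (5e-07). The level copy was B in RPS29 and A in RPS25, and each was read from the brighter probe set of its pair, brighter on average than 97.3% and 97.6% of the genes tested. The part of that brightness in their small ranges was not tested. A minus B had ranges of 1.14 ± 0.19 for RPS29 and 1.12 ± 0.17 for RPS25 (limma adjusted p = 0.000154 and 3.97e-05).

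RPS22, a body protein that contacts the central domain of the ribosomal RNA, differed in timing as well as size. RPS22A ran from 4002 through 7483 to 14511, against 5893, 8365 and 13729 for RPS22B. RPS22A was low between 122° and 146°, at phases where RPS22B was still near its mean, and RPS22B was lowest at 171° and stayed below its mean until 321°. The fitted ranges were 1.63 ± 0.20 and 0.97 ± 0.24 (limma adjusted p = 1.26e-06 and 0.00291). The curves peaked at 35° and 60°, which is the widest gap in peak phase of the 21 pairs, and had their lowest points at 148° and 189°. A minus B had a range of 1.11 ± 0.24 (limma adjusted p = 0.00426). The median gap in peak phase over the 21 pairs was 10°. An earlier low point of the wider copy was not particular to RPS22: the fitted curves showed it in 16 of the 21 pairs.

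RPS18, a head protein, and RPS27, a zinc-binding protein of the body, complete the 8 pairs with the largest change among those that passed. RPS18A ran from 9212 through 11966 to 16620, against 5734, 9957 and 18282 for RPS18B. RPS27A ran from 5621 through 9914 to 17109, against 11295, 15371 and 19076 for RPS27B. In RPS18 the B copy dropped further, and in RPS27 the A copy dropped further and earlier, with its lowest sample at 122° against 146° for RPS27B. Ranges were 0.57 ± 0.16 and 1.49 ± 0.17 for the copies of RPS18, and 1.40 ± 0.20 and 0.54 ± 0.14 for those of RPS27, and all 4 genes passed. A minus B had ranges of 0.93 ± 0.20 and 0.93 ± 0.22 for the pairs RPS18 and RPS27 (limma adjusted p = 0.00268 and 0.00651). Without the last 3 samples both calls were lost when the autocorrelation was estimated anew, and both were kept when it was held.

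**Figure D3:**
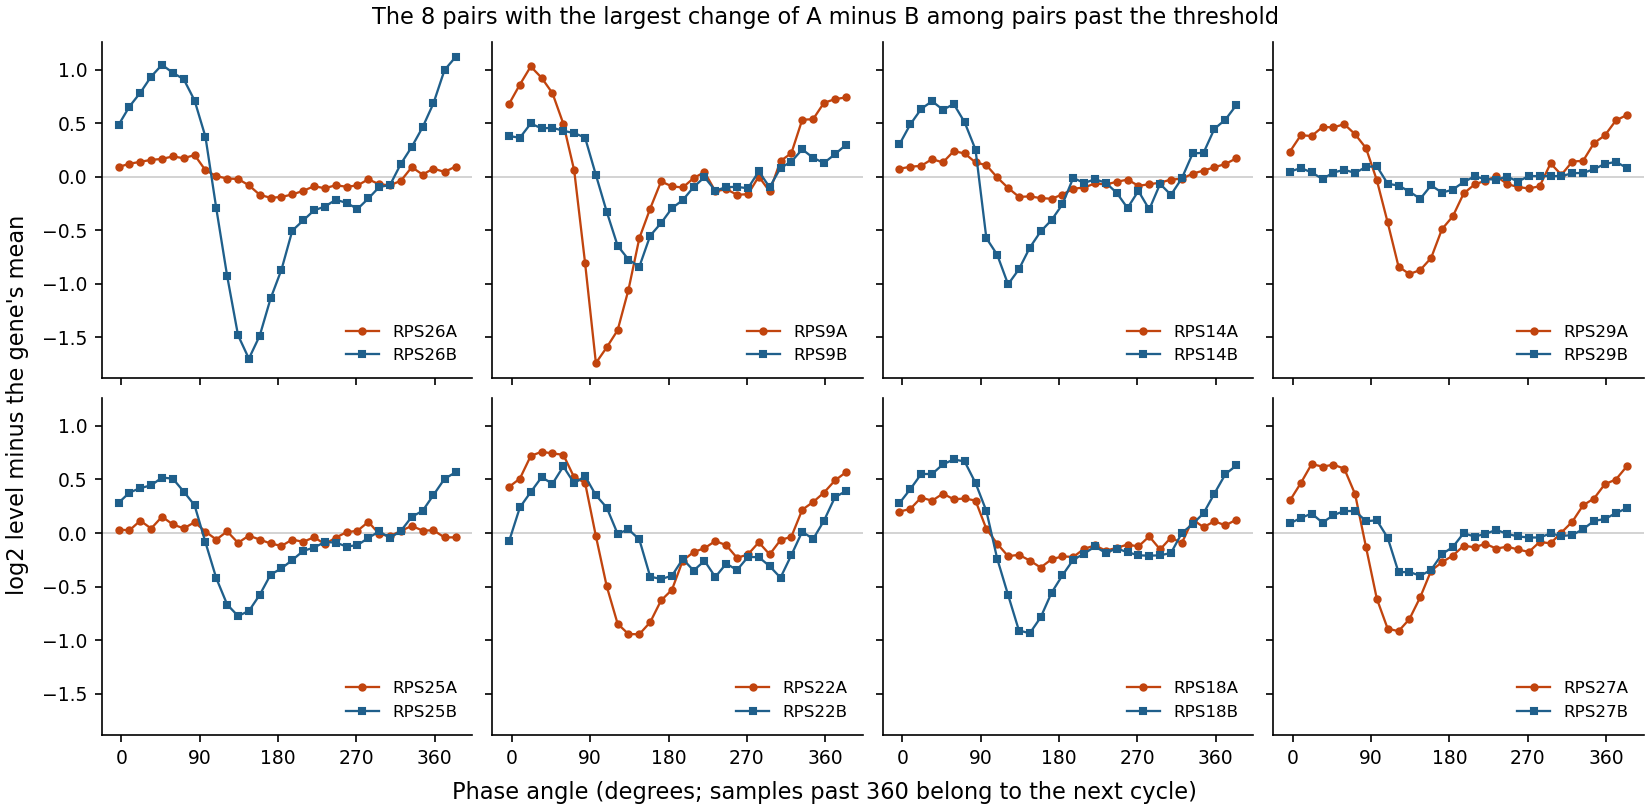
Each panel shows the A copy (circles) and the B copy (squares) of a pair as normalized log2 level minus the gene's own mean, against phase angle in degrees, with the samples of the next cycle at the right. The copy with the deeper low point is B in RPS26, RPS14, RPS25 and RPS18 and A in RPS9, RPS29, RPS22 and RPS27. The A copy also turned down before the B copy in RPS9, RPS22 and RPS27, and the B copy before the A copy in RPS14.

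The other 3 pairs that passed were RPS24, RPS28 and RPS7, with ranges of A minus B of 0.92 ± 0.24, 0.87 ± 0.23 and 0.72 ± 0.22 (limma adjusted p = 0.016, 0.00683 and 0.0491). In each the B copy had the wider range. RPS24A, with signals from 10775 through 13108 to 15213, had a range of 0.29 and did not pass (limma adjusted p = 0.471), against 1.19 for RPS24B. RPS28B, whose protein in this yeast takes part in the decay of its own mRNA, had a range of 1.58, beside 0.76 for RPS28A. The call of RPS24 was lost without the last 3 samples, also with the autocorrelation held, with odd time points, with a linear time term and, with the autocorrelation held, with the brightest sets. The call of RPS28 was lost without the last 3 samples and kept there with the autocorrelation held. RPS7 lay close to the threshold: its call was lost when any of 14 single samples was left out, with adjusted p up to 0.0911. Of 24 alternative settings, 16 kept the call of RPS7. It was lost with odd and with even time points. It was also lost with a linear time term and without the last 3 samples, in both cases also with the autocorrelation held. Adding the running number of the arrays lost it only with the autocorrelation held. Among the 11 pairs that passed, the wider copy was A in 4 and B in 7.

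In the 10 pairs that did not pass, the test does not show that the copies moved alike. The smallest ranges of A minus B were those of RPS0, RPS16 and RPS23, with 0.20 ± 0.22, 0.24 ± 0.26 and 0.28 ± 0.18. RPS0 is needed for the maturation of the small subunit, and its copies had signals from 5069 through 9060 to 14778 for RPS0A, against 7057, 10503 and 17268 for RPS0B. Their courses were close: ranges of 1.23 and 1.11, peaks at 38° and 37°, and both passed. RPS16, whose tail reaches the tRNA in the peptidyl site, had signals from 8488 through 12532 to 18218 for RPS16A, against 7230, 11588 and 16228 for RPS16B. RPS16A had a range of 0.74 and did not pass (limma adjusted p = 0.0788), against 0.97 for RPS16B, which did. A second set of RPS16A, which ends in _x_at and can match other transcripts, had a range of 0.72 ± 0.18. That set passed when fitted among all S. cerevisiae probe sets (limma adjusted p = 0.00932). RPS23, at the decoding centre, had 7691, 10579 and 16057 for RPS23A, against 10323, 12802 and 19910 for RPS23B. RPS23A had a range of 0.68 and passed, against 0.63 for RPS23B, which did not (limma adjusted p = 0.0594).

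RPS19 stood apart among these 10 pairs. RPS19A had a range of 1.49 ± 0.63 and RPS19B one of 0.34 ± 0.21, and neither passed (limma adjusted p = 0.339 and 0.687). The signals ran from 3193 through 6266 to 13402 for RPS19A, against 13117, 16822 and 21102 for RPS19B. RPS19A had the largest median step between consecutive samples of the 52 genes, 0.19 on the log2 scale where the next was 0.16, and stood high in the single sample at 334°. The range of A minus B, 1.15 ± 0.42, was the fourth largest of the 21 and did not pass (limma adjusted p = 0.213). Further pairs without a call were RPS1, RPS21 and RPS10, with ranges of A minus B between 0.32 and 0.68.

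In these 3 pairs 1 copy passed and the other did not. RPS1B had signals from 8885 through 12822 to 16856 and a range of 0.58 (limma adjusted p = 0.0732), and RPS21B had 12469, 16755 and 20263 with 0.33 (0.817). RPS10A had 4721, 8351 and 15960 with a range of 1.31 (limma adjusted p = 0.0774). The copy that passed had a range of 1.26 in RPS1A, 0.73 in RPS21A and 1.35 in RPS10B. In RPS10 the copies had nearly equal ranges although 1 copy passed and the other did not. The call of RPS10A depended on the probe set. Its second set, which ends in _x_at and can match other transcripts, had a range of 1.25 ± 0.26. That set passed when fitted among all S. cerevisiae probe sets (limma adjusted p = 0.0026).

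Brightness of the probe set moved together with the range. In all 21 pairs the copy read from the dimmer probe set had the wider fitted range. Brightness here was the mean log2 signal over the same 32 samples, so a deeper low point also lowers it. The 2 measures are therefore not independent, and this count is not a test of probe brightness. The 13 dimmest of the 52 genes had a median range of 1.49, the next 13 one of 1.11, the third 13 one of 0.35 and the brightest 13 one of 0.40. The family is bright as a whole: 44 of the 52 were among the 537 brightest genes tested, and their highest single signal was 23823, where the brightest signal of any probe set was 25200. Over those 537 genes the median range was 0.63, and 27.2% had a range of at least 2-fold, with the widest at 4.52. On the linear scale of the deposited signals, the dimmer copy had the larger difference between its highest and lowest sample in 15 of the 21 pairs.

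The part of probe brightness in the differences between copies was not tested, and the means below share their 32 samples with the ranges. In 7 pairs the mean log2 signals of the copies lay within 0.25 of each other, and 3 of these 7 passed: RPS22, RPS18 and RPS7. The mean of RPS22A lay 0.09 below that of RPS22B while the ranges were 1.63 and 0.97. Of the 14 pairs with a larger gap in brightness, 8 passed. Over all 52 pairs on the array the share that passed was 48.1%.

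**Figure D4:**
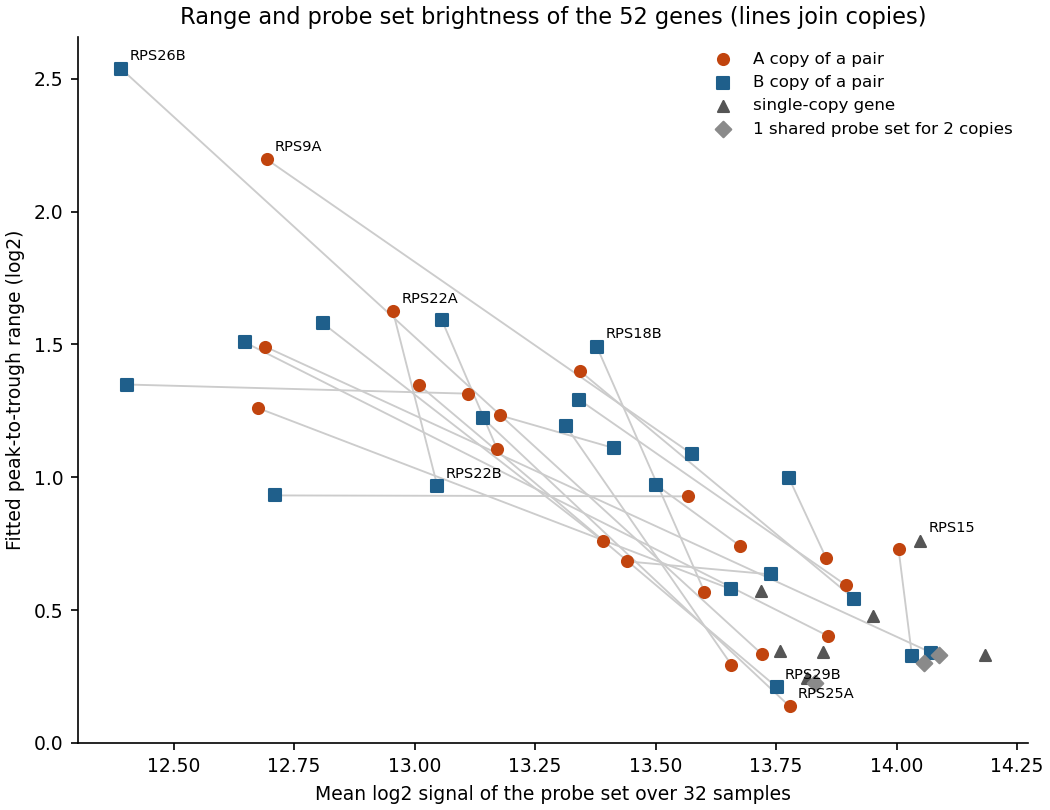
Each point is a gene, with the mean log2 signal of its probe set over 32 samples on the horizontal axis and its fitted peak-to-trough range (log2) on the vertical axis; grey lines join the copies of a pair. Lines fall from left to right in all 21 pairs. The line between RPS22A and RPS22B is steep, since the copies have nearly the same brightness.

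Probe sets whose names end in _s_at or _x_at can match more than 1 transcript. None of the 21 pair comparisons used them, because each of the 42 genes had a set ending in plain _at, but 13 genes also had such a second set. For the 7 genes with an additional _s_at set, that set gave the smaller range in 6. RPS18B had 1.49 from its own set and 0.26 from the _s_at set, and RPS23A had 0.68 and 0.09. RPS19B had 0.34 and 0.20, and RPS24A went the other way with 0.29 and 0.63. For the 6 genes with an _x_at set the ranges differed by at most 0.14. Some calls still depended on the set when all S. cerevisiae sets were fitted together. The _x_at sets of RPS10A and RPS16A and the _s_at set of RPS24A passed (limma adjusted p = 0.0026, 0.00932 and 0.0147). Their plain _at sets did not.

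The choice of set turned the direction of RPS18. When each gene was read from its brightest set of any kind, the A minus B range of RPS18 was 0.31 (limma adjusted p = 0.159), and the difference ran the opposite way over the cycle. The median signal of RPS18B was 9957 in its own set and 14221 in the shared set. RPS4B, RPS6B and RPS30A, which were read only from _s_at sets, had ranges of 0.33, 0.30 and 0.22 and did not pass (limma adjusted p = 0.216, 0.308 and 0.809). Their signals ran from 13962 through 17669 to 20097 for RPS4B, from 14345 through 17200 to 19448 for RPS6B, the phosphorylated protein of the body, and from 12748 through 14265 to 17277 for RPS30A.

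**Figure D5:**
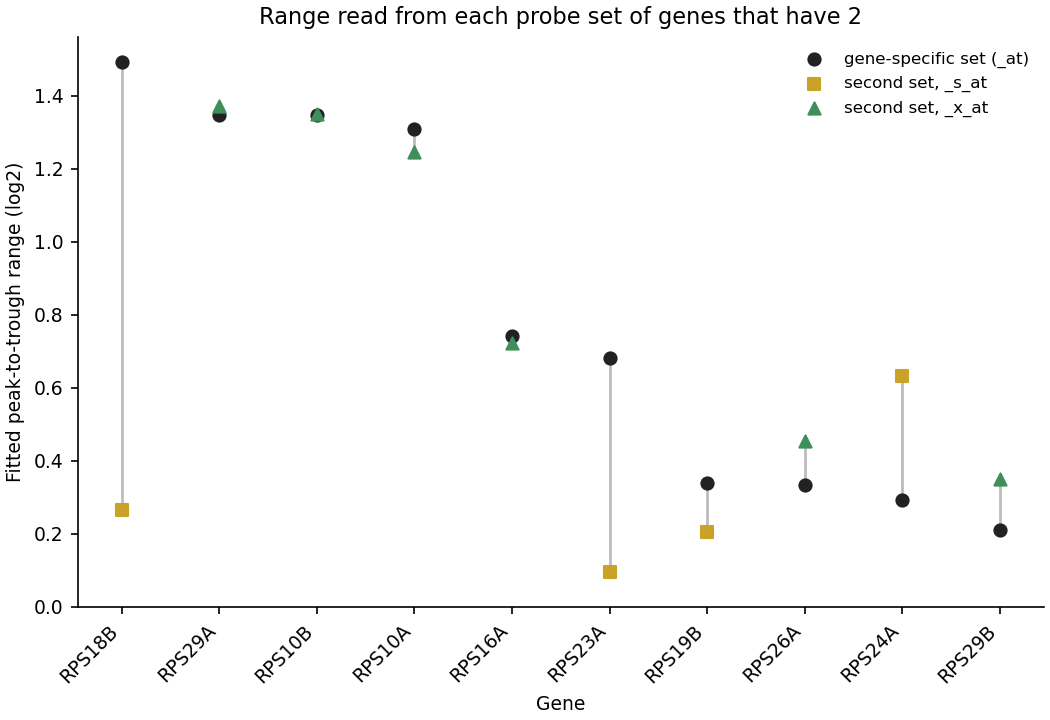
For 10 of the 13 genes with 2 probe sets, circles give the fitted peak-to-trough range (log2) from the gene-specific set, squares that from an _s_at set and triangles that from an _x_at set. The squares of RPS18B and RPS23A lie well below their circles, and the triangles lie close to theirs.

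Of the 7 single-copy genes none had a 2-fold range. RPS15, a head protein needed for the export of the small subunit from the nucleus, had the widest range, 0.76 ± 0.13, with signals from 11573 through 16015 to 23823 and its highest sample at 71.7° (limma adjusted p = 0.000259). RPS13 had signals from 9861 through 13378 to 17373 and a range of 0.57 ± 0.13 (limma adjusted p = 0.00764). RPS20, a head protein, had 12532, 15819 and 19516 and a range of 0.48 ± 0.11 (limma adjusted p = 0.0128). These 3 passed.

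RPS2 and RPS3, which line the mRNA entry, RPS12 and RPS31 did not pass. Their ranges were 0.34 ± 0.15, 0.35 ± 0.14, 0.24 ± 0.12 and 0.33 ± 0.14 (limma adjusted p = 0.285, 0.279, 0.533 and 0.317). RPS2 ran from 11478 through 14690 to 17905, and RPS3 from 11343 through 13882 to 16364. RPS12 ran from 11693 through 14234 to 16810, and RPS31, made as a fusion with ubiquitin, from 14626 through 18996 to 21357. RPS31 was the brightest of the 52 genes by its mean. All 7 single-copy genes lay in the brighter part of the family, with means of at least 13.72 on the log2 scale.

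Genes that act with the family were described from lists. Of 76 large subunit genes tested, 48 passed (63.2%, against 55.4% of all genes tested), with a median range of 0.78, against 0.87 over all genes, and a median peak at 39°, beside 38.5° for the 52 small subunit genes. RPL13A (2.75 ± 0.34), RPL22B (2.71 ± 0.36) and RPL18B (2.14 ± 0.38) had the widest ranges. Among the 29 pairs of the large subunit, A minus B varied in 12, against 48.1% of all 52 pairs. Its median range was 0.69, against 0.72 in the 52, and the dimmer copy had the wider range in 25 of the 29. Whether the subunits differ in these shares was not tested.

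Of 14 genes for factors that mature the small subunit 13 passed (92.9%, against 55.4% of all genes tested), with a median range of 2.74 over the list, beside 0.87 over all genes tested; HRR25 did not pass (0.47 ± 0.17, limma adjusted p = 0.152). ENP1, LTV1 and TSR1, which act in late nucleolar and cytoplasmic assembly, had ranges of 4.69 ± 0.48, 4.57 ± 0.37 and 4.36 ± 0.41 and peaked at 26°, 34° and 27°. TSR2, the chaperone that delivers the RPS26 protein, was looked up because of that pair and changed by 4.14 ± 0.40, peaking at 29°. Of the 4 tested genes for proteins that bind the small subunit 3 passed: the recycling factor gene RLI1 (2.80 ± 0.29, peak at 36°), MBF1 (1.42 ± 0.32, peak at 148°) and ASC1 (0.45 ± 0.11, peak at 58°). ASC1 encodes a head protein without an RPS name, and its signal ran from 10875 to 15659.

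Of 14 regulators of ribosomal protein genes 8 passed, which at 57.1% is close to the 55.4% of all genes tested. TOD6, a repressor of ribosome assembly genes, changed by 4.56 ± 0.40 and peaked at 30°, and the coactivator gene IFH1 changed by 3.72 ± 0.48 and peaked at 22° (limma adjusted p = 1.34e-09 and 1.29e-06). CRF1, the corepressor that can take the place of Ifh1 on Fhl1, ran opposite, since its curve, of range 3.64 ± 0.45, was highest at 153° and lowest at 41° (limma adjusted p = 2.62e-07). The deposited signal of IFH1 ran from 157.7 at 122° to 4626 at 21.8°, and that of CRF1 from 83 at 46.8° to 1346 at 134°. The lowest levels of IFH1 and the highest of CRF1 fell in the interval in which most small subunit genes were lowest. IFH1 and CRF1 were named for their wide ranges, and this timing does not describe the 14 regulators as a set. Whether the RNA levels of these regulators bear on the small subunit genes was not tested.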

How the data were processed

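Signals of 32 samples of 1 culture were used. The authors deposited an intensity per probe set on a linear scale. GCOS is named in the submitters' processing notes; its version and scaling are not stated there. Of 10928 probe sets, 5498 named 1 S. cerevisiae gene and 1747 an S. pombe gene; the other 3683, controls and unnamed sets and 1 set naming several genes, were left out of tests. A pseudocount of 1.9 (10th percentile of all values) was added, and log2 values were quantile normalized over the S. cerevisiae sets, because array medians spanned 0.70. Each gene was read from its brightest set ending in plain _at, or otherwise from its brightest set; the 5373 genes tested had a mean over 4.45, which 95% of S. pombe sets did not reach.

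Calculations used R 4.3.3 and limma 3.58.1. Cosine and sine of the phase angle and of its double were fitted after Prais-Winsten whitening, with an autocorrelation of 0.85 for genes and 0.81 for pair differences. These are the median lag-1 values of the residuals, 0.38 and 0.35, corrected by simulation for the bias of short series. The test was tried on simulated data. The members, lists and alternatives were chosen with earlier results of these data known. Pairs were named by the size of A minus B (the 8 largest past the threshold and the 3 smallest); single-copy genes and those not passing were named, as were up to 3 genes per list. The places of proteins in the subunit were assigned after first results were seen. Other scalings, pseudocounts, probe set choices, filters, harmonics, added terms and subsets of samples were tried; leaving out single samples was added after seeing the data. The arrays were checked for duplicates, and 0 pairs of columns were identical. A few members are counted in the totals but are not reported here one by one.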

Additional observations from a re-analysis of the deposited data

How the results depend on the processing

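The counts depended most on how autocorrelation and curve shape were treated. Without whitening 52 of the 52 genes and 21 of the 21 pairs passed, with 2 harmonics or 1 harmonic, beside 5093 and 4904 of all genes and 50 and 47 of all 52 pairs. Without the correction for bias, 51 genes and 18 pairs passed, beside 4706 and 45 in all. With a single whitened cosine 0 genes, 0 pairs and 3 list genes passed (limma), beside 457 genes and 0 pairs in all; the estimated autocorrelation was then 0.95, the highest value tried. The autocorrelation was estimated anew under each setting, so 6 settings were run again, after seeing the data, with it held at the main values. Poly-A scaling gave 21 genes, 43 list genes in place of 72, and 1318 in all, and 15, 36 and 1187 with it held. Without the last 3 samples 6 pairs passed, or 11 of all 52, and 9 or 21 with it held. Added time gave 16 of all 52, and 24 held; brightest sets 38, and 25 held; even time points 15. The brightest sets reversed the difference of RPS18 (0.31, and 0.30 held). Leaving out single samples gave 31 to 38 genes, 10 to 12 pairs and 63 to 79 list genes. The other settings kept the 3 counts within 1.5 times. Of the 8 named pairs, the call of RPS9 was also lost with odd time points, that of RPS18 with the mean of all sets, that of RPS27 with odd and with even time points, and those of RPS18 and RPS27 without the last 3 samples, where both passed with the autocorrelation held. Samples could not be paired between groups because the series is 1 group without replicate numbers.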
